A study of Mus musculus with 11 samples.

Results

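The enzymes described here are 9 mouse genes whose products are known to control how long the MYCN protein lasts: the deubiquitinase Usp7, the kinases Aurka, Plk1 and Gsk3b, and the ubiquitin ligase genes Fbxw7, Skp2, Huwe1, Trip12 and Trim32. They were taken by symbol, as 9 of the 23284 genes counted in each tumor, and 9 of 9 passed the filter on low counts that left 15237 genes for testing. Poly(A) RNA had been sequenced from 11 mouse small cell lung tumors, a neuroendocrine lung cancer. All 11 carried the same genotype, Rb;p53 with TRE-MYCN, a MYCN transgene that doxycycline switches on, and LSL-RTTA, a Cre-dependent copy of the doxycycline-responsive activator. In the MYCN ON group, 7 tumors were on doxycycline, and in the MYCN OFF group 4 tumors had been without it for 7 days. The labels give no age, no promoter for Cre and no statement that each tumor came from its own mouse, so p-values measure the spread between tumors. The drug and the transgene changed together and cannot be told apart. The comparison asks which genes differ between tumors on doxycycline and tumors 7 days without it.

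MYCN is a short-lived protein whose removal begins with phosphorylation. A priming kinase and then GSK3 beta mark a degron near its amino terminus, which FBXW7, the substrate receptor of an SCF ubiquitin ligase, recognises and targets to the proteasome. Aurora A binds MYCN and shields it from FBXW7, PLK1 drives the destruction of FBXW7 itself, and USP7 removes ubiquitin from MYCN, all shown mainly in human neuroblastoma cells. SKP2 is the receptor of another SCF ligase that acts on MYC, HUWE1 and TRIP12 are HECT-type ligases, and TRIM32 is a RING ligase of the TRIM-NHL family that acts on MYC proteins in neural cells. Counts of mRNA say nothing direct about these proteins or their activity.

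Start-site windows are shown for Aurka and Plk1, whose levels ran closely together between tumors (Pearson r of log2 levels 0.93, and 0.948 with the group means taken out). Usp7, also shown, ran less closely with Aurka (0.759 and 0.226). Aurka and Skp2 ran about as closely as Aurka and Plk1 (0.959 and 0.888), and the Skp2 windows are not shown. These r are over 11 tumors, as a description only, and the first of each pair also holds the group difference. Each window runs from 250 bases before to 50 bases after a start site, read along the gene's strand, from the RefSeq table for build GRCm38.p6. The reads were aligned to mm9, so these positions apply to GRCm38.p6 only. Capitals mark TTTGAA, the core of the cell cycle genes homology region, and CCAAT, the NF-Y box, on either strand.
Aurka, chr2:172370521-172370820, minus strand: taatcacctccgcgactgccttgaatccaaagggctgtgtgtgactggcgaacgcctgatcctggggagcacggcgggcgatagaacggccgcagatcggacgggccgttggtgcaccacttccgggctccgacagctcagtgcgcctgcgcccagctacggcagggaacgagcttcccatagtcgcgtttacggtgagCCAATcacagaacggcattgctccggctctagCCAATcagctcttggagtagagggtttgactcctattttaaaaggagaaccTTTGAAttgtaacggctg
Plk1, chr7:122159185-122159484, plus strand: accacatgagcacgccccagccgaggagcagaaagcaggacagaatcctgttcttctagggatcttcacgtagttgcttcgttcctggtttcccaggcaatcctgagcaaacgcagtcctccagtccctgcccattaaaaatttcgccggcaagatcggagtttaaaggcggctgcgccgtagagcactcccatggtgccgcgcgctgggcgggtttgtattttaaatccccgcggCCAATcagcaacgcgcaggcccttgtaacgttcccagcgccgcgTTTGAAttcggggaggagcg
Usp7, chr16:8738293-8738592, minus strand: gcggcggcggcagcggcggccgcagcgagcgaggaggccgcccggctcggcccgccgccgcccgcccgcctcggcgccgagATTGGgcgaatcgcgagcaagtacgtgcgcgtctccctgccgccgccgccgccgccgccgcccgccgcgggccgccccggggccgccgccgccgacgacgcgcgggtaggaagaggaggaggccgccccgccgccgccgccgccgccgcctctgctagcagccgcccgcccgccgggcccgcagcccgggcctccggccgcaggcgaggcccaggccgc

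In the Aurka window TTTGAA begins 32 bases after the start site, with CCAAT at -51 and -19 bases, and in the Plk1 window it begins 30 bases after it, with CCAAT at -14. The Usp7 window is 86% G and C, holds no TTTGAA and has 1 CCAAT on the opposite strand at -169. Of the 12 windows of the 9 genes, 4 held both motifs, those of Aurka, Plk1, Trim32 and the farther upstream of the 2 for Skp2. The other Skp2 window held neither motif, although Skp2 levels ran closely with those of Aurka. Both motifs occur in 6.95% of all 32851 windows in the table, TTTGAA (or TTCAAA) in 17.9% and CCAAT (or ATTGG) in 37.4%. CACGTG, the canonical E-box that MYC proteins bind and a palindrome, was in 0 of the 12 windows and in 7.15% of all windows. A match is a stretch of letters in this window, not a shown site, and the motifs TTTGAA and CCAAT were chosen after the windows and the values had been seen.

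The MYCN ON libraries held between 10324089 and 13123838 gene reads and the MYCN OFF libraries between 8951733 and 12190957. Levels are read counts relative to library size (CPM), scaled by TMM factors, which were 0.835 to 1.009 in MYCN ON and 1.09 to 1.216 in MYCN OFF. Mycn was at 36.5 to 171 CPM in MYCN ON and 5.62 to 15.6 CPM in MYCN OFF, with no overlap. Its log2 fold change was 3.06 with an SE of 0.47 (edgeR adjusted p = 0.00139). The labels do not give the species of the transgene. The summed level of 12 neuroendocrine markers was 2576 to 4132 CPM in MYCN ON and 2013 to 8798 CPM in MYCN OFF, with Neurod1 at 0 reads in MYCN ON tumor 1. The sum of 12 lung markers was 117 to 3900 CPM in MYCN ON, highest in tumors 3 and 5, against 37658, 196, 4054 and 6712 CPM in MYCN OFF tumors 1 to 4. Sftpd, a lung surfactant gene, was at 0 reads in MYCN ON tumors 1 and 2 and in MYCN OFF tumor 2. That tumor also had the highest sum of 8 muscle markers, 678 CPM, against at most 258 CPM in MYCN ON. In such bulk samples fewer cells of a type and less RNA per cell cannot be told apart. By gene, 5 of 12 lung, 8 of 13 immune, 4 of 8 endothelial and 1 of 8 muscle markers were called lower in MYCN ON and 0 higher. None of 8 fibroblast markers was called either way, and of the 12 neuroendocrine markers 1 was higher and 2 were lower. Of all genes tested, 13.4% were called lower and 16.0% higher, and the muscle and neuroendocrine counts lie near those shares.

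Of the 9 genes, 4 were higher in MYCN ON (Usp7, Aurka, Skp2 and Gsk3b), 0 were lower and 5 did not pass the test, at a Benjamini-Hochberg adjusted p below 0.05 by edgeR's quasi-likelihood test over all genes. Among all 15237 genes, 16.0% were called higher and 13.4% lower, 29.4% in all. At an unadjusted p below 0.05, 6 of the 9 were higher and 0 lower, against 22.0% and 20.9% of all genes. DESeq2 called 4 of the 9 higher and 0 lower, against 17.5% and 19.2% of all genes, and limma voom 3 and 0, against 16.5% and 12.1%. Their median log2 fold change was 0.67, against 0.0023 over all genes tested. The ranges of the groups did not overlap for Usp7, Aurka and Skp2, with MYCN ON above, as for 11.4% of all genes. None of the 9 lay wholly above in MYCN OFF, as 5.41% of all genes did, and 16.8% of all genes did not overlap in either direction. The count of 4 was 7 without MYCN OFF tumor 2, adding Huwe1, Plk1 and Trip12, where 19.1% of all genes were called higher. It was 1 without MYCN OFF tumor 4, which left Usp7, against 10.9% of all genes. With library totals as the only scaling it was 2, against 8.67%. After adding the lung marker score to the fit it was 1, against 6.86%. With the proliferation marker score as a covariate it was 0, against 4.34% of all genes (1 at an unadjusted p below 0.05).

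**Figure D1:**
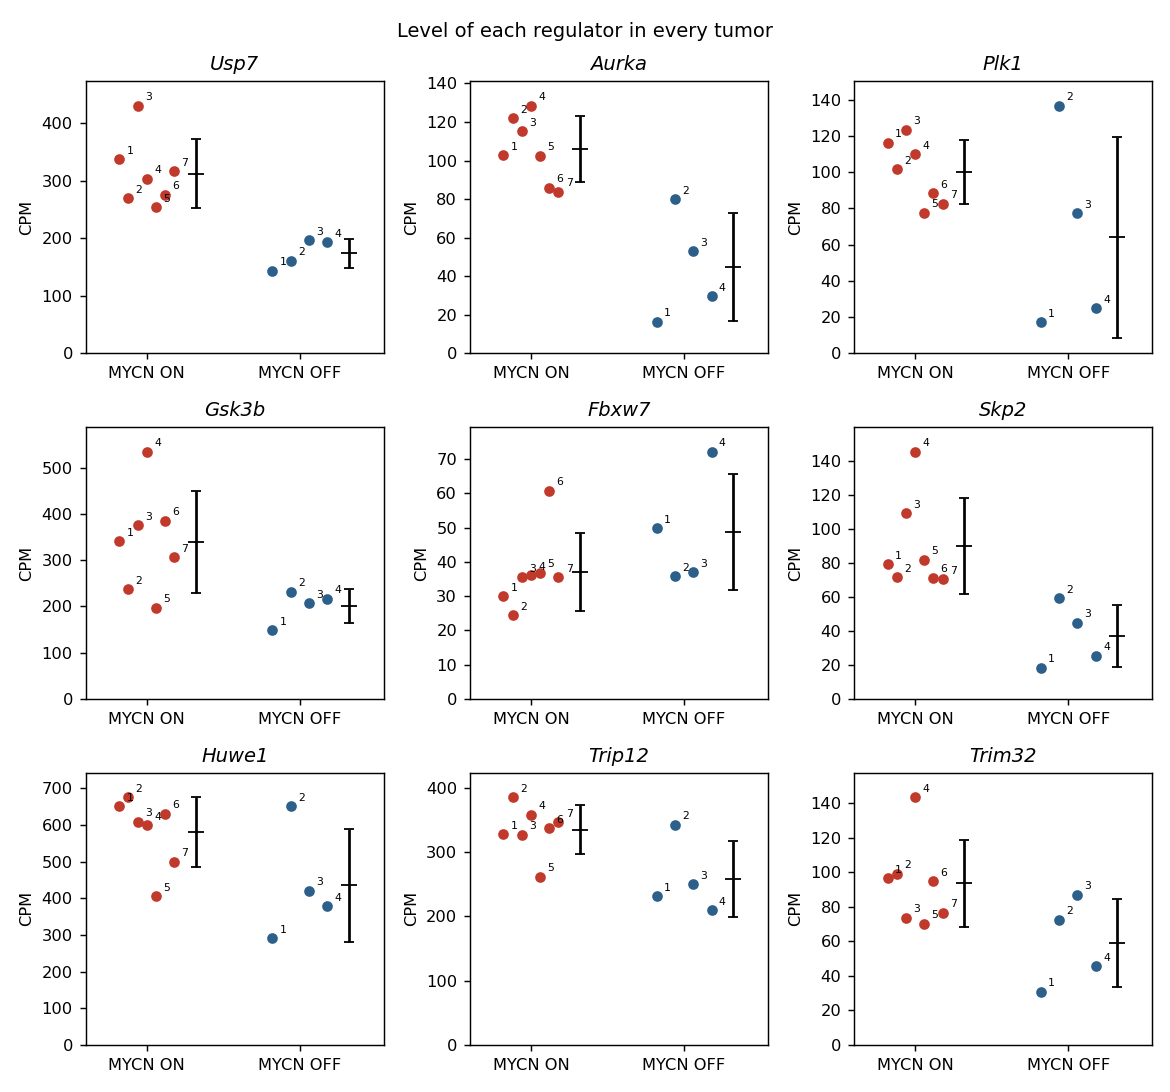
Level of each of the 9 genes in every tumor, in CPM on linear axes from 0, with MYCN ON in red and MYCN OFF in blue; numbers beside the points are tumor numbers, and bars are mean ± SD (n = 7 and 4). Usp7 was at 254 to 431 CPM in MYCN ON and at most 197 CPM in MYCN OFF, while Plk1 was highest of all in MYCN OFF tumor 2, at 137 CPM.

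Usp7, which codes for a ubiquitin protease that spares several nuclear proteins from the proteasome, was at 254 CPM in its lowest MYCN ON tumor, 303 CPM in the median and 431 CPM in the highest. The MYCN OFF tumors 1 to 4 had 144, 161, 197 and 193 CPM. Every MYCN ON tumor therefore lay above every MYCN OFF tumor, with a gap between 197 and 254 CPM. Means were 313 ± 59.5 CPM in MYCN ON and 174 ± 25.3 CPM in MYCN OFF (SD, n = 7 and 4), well apart for this spread (log2 fold change 0.85 with SE 0.17, edgeR adjusted p = 0.00531). Usp7 was 1107th of the 15237 genes in order of p. Its coefficient of variation was 19.0% in MYCN ON, where those of the 9 ran from 11.3% to 32.5%, and 14.6% in MYCN OFF, the lowest of the 9 there. The call held without any 1 of the 11 tumors (log2 fold change 0.70 to 0.92, edgeR adjusted p = 0.0055 to 0.0175) and with the lung marker score added (0.90, adjusted p = 0.0272). With library totals the value was 0.53 (adjusted p = 0.0498), where the median of all genes moved by -0.31, and with the proliferation marker score it was 0.81 (adjusted p = 0.088).

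Within MYCN ON, the order of the tumors by Usp7 matched that by Mycn in part. Tumor 5, lowest in Mycn at 36.5 CPM, was also lowest in Usp7, at 254 CPM. Tumor 2, with 59.5 CPM of Mycn and 270 CPM of Usp7, and tumor 4, with 109 CPM of Mycn and 303 CPM of Usp7, also held the same place in both orders. The other tumors did not. Tumor 1, highest in Mycn at 171 CPM, had 337 CPM of Usp7, and tumor 3, with 125 CPM of Mycn, had the most Usp7, 431 CPM. Tumor 6 was second in Mycn, at 140 CPM, and had 276 CPM of Usp7, less than tumor 7 with 70.2 CPM of Mycn and 317 CPM of Usp7. In MYCN OFF, tumor 4 had the least Mycn, 5.62 CPM, and 193 CPM of Usp7, close to the 197 CPM of tumor 3.

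Of the 3 kinases, Aurka and Gsk3b were called higher in MYCN ON and Plk1 was not. Aurka, the mitotic kinase Aurora A, was at 83.8 CPM in its lowest MYCN ON tumor, 103 CPM in the median and 128 CPM in the highest, against 16.3, 79.8, 53.0 and 29.7 CPM in MYCN OFF tumors 1 to 4. The groups did not overlap, but MYCN OFF tumor 2, at 79.8 CPM, came close to the lowest MYCN ON tumor. Means were 106 ± 17.1 CPM in MYCN ON and 44.7 ± 27.9 CPM in MYCN OFF, a 2.37-fold difference (log2 fold change 1.24 with SE 0.35, edgeR adjusted p = 0.0224). The call was lost without MYCN OFF tumor 4 (adjusted p = 0.0678), with library totals (0.0591), with the lung score (0.103) and with the proliferation score (0.424), and adjusted p-values over all 22 alternatives ran from 0.00339 to 0.424. Aurka overlaps Cstf1 in the annotation, and reads of overlapping genes may be misassigned without strand information.

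Plk1, the polo kinase of mitotic entry, had 77.6, 101 and 123 CPM as the lowest, median and highest in MYCN ON. MYCN OFF tumors 1 to 4 had 17.2, 137, 77.3 and 24.7 CPM. Tumor 2 of MYCN OFF was thus above all MYCN ON tumors and tumors 1 and 4 far below them, so that the coefficient of variation was 86.5% in MYCN OFF and 17.6% in MYCN ON. The log2 fold change was 0.64 (SE 0.46, 95% interval -0.36 to 1.65, edgeR adjusted p = 0.309), an interval that spans a fold of 0.779 to 3.14. Without MYCN OFF tumor 2 it was 1.34 (adjusted p = 0.0277), the only 1 of the 22 alternatives to call Plk1.

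Gsk3b, the kinase that completes the MYCN degron, had 198, 341 and 534 CPM as the lowest, median and highest in MYCN ON, and 149, 232, 207 and 217 CPM in MYCN OFF tumors 1 to 4. MYCN ON tumor 5 lay inside the MYCN OFF range, and MYCN ON tumor 2, at 237 CPM, just above it. Means were 340 ± 110 CPM in MYCN ON and 201 ± 36.1 CPM in MYCN OFF, with a log2 fold change of 0.75 (SE 0.26, edgeR adjusted p = 0.0441). That call lay at the threshold: 17 of 22 alternatives ended it, among them 8 of the 11 that left out 1 tumor, all but those without MYCN ON tumors 2 or 5 or MYCN OFF tumor 2. Adjusted p-values over the alternatives ran from 0.0196 to 0.399, and the direction was the same in all 22. Over the 8 left-out tumors that ended it, the adjusted p was 0.0833 (MYCN ON tumor 1), 0.0877 (3), 0.0647 (4), 0.0701 (6), 0.0561 (7), 0.127 (MYCN OFF tumor 1), 0.0852 (3) and 0.0799 (4).

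**Figure D2:**
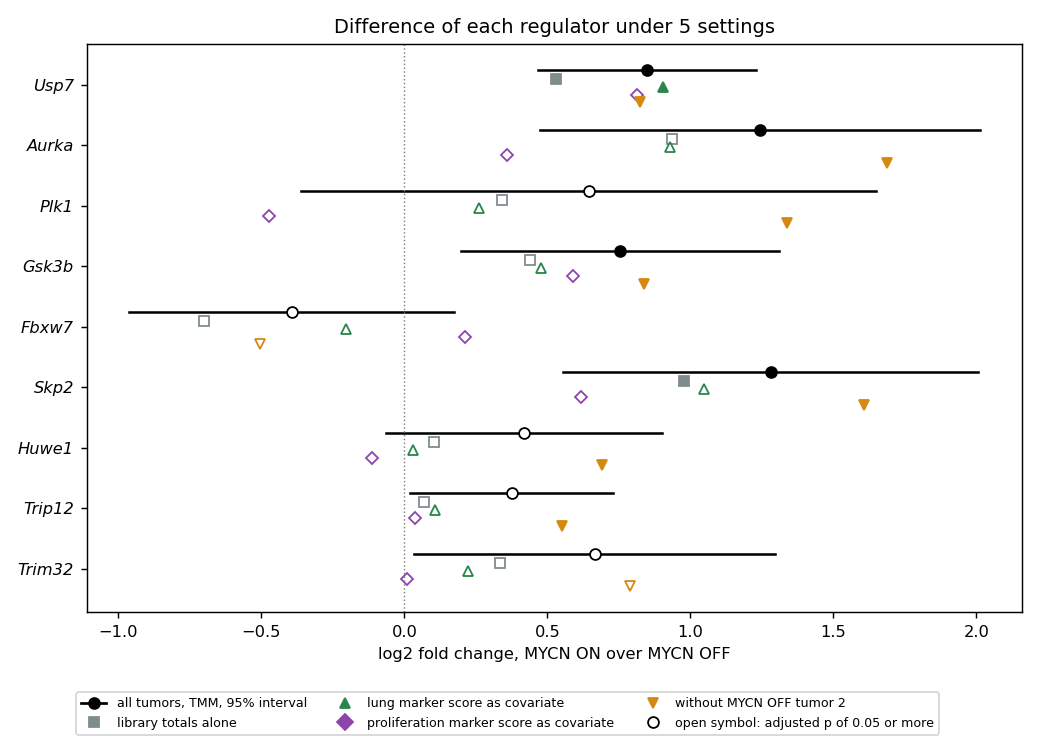
Log2 fold change of MYCN ON over MYCN OFF for the 9 genes: black circles with 95% intervals are the fit of all 11 tumors with TMM factors, and the other symbols show 4 alternatives. Filled symbols have an adjusted p below 0.05. With the proliferation marker score as a covariate the value of Usp7 was 0.81, while those of Plk1, Fbxw7 and Huwe1 changed sign, to -0.47, 0.21 and -0.11.

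The genes of both SCF receptors lay on opposite sides. Fbxw7 was the only gene of the 9 with a lower mean in MYCN ON, 37.0 ± 11.4 CPM against 48.7 ± 16.9 CPM in MYCN OFF, and it did not pass the test (log2 fold change -0.39, SE 0.26, 95% interval -0.96 to 0.18, edgeR adjusted p = 0.272). Its lowest, median and highest MYCN ON values were 24.4, 35.6 and 60.7 CPM, and MYCN OFF tumors 1 to 4 had 49.8, 35.8, 36.9 and 72.1 CPM. MYCN ON tumor 6 stood apart at 60.7 CPM, and with MYCN OFF tumors 1 and 4 made up the 3 highest. The value was 0.21 with the proliferation marker score as a covariate (adjusted p = 0.758).

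Skp2 was at 70.5, 79.1 and 145 CPM as the lowest, median and highest in MYCN ON and at 18.5, 59.1, 44.8 and 25.6 CPM in MYCN OFF tumors 1 to 4, so the groups did not overlap. Means were 89.8 ± 27.9 CPM in MYCN ON and 37.0 ± 18.4 CPM in MYCN OFF, a 2.43-fold difference (log2 fold change 1.28, SE 0.33, edgeR adjusted p = 0.0154). The call was lost with the lung score (adjusted p = 0.0855), with the proliferation score (0.339) and, by a narrow margin, without MYCN OFF tumor 4 (0.0501). Over the 22 alternatives the adjusted p ran from 0.00151 to 0.339. Skp2 overlaps Lmbrd2 in the annotation, with the same limit on strand as for Aurka.

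Ratios of read counts inside a tumor do not depend on the scaling between tumors. For each Fbxw7 read there were 4.54 to 12.1 Usp7 reads in MYCN ON, with a median of 8.91, and 2.89, 4.50, 5.33 and 2.67 in MYCN OFF tumors 1 to 4. Only MYCN ON tumor 6, the one with high Fbxw7, fell within the MYCN OFF range. The ratio of Aurka to Fbxw7 reads was 1.42 to 5.0 in MYCN ON and 0.327, 2.23, 1.44 and 0.412 in MYCN OFF, and that of Skp2 to Fbxw7 reads was 1.17 to 4.01 in MYCN ON and 0.372, 1.65, 1.21 and 0.355 in MYCN OFF. The ranges overlapped for each of the 8 ratios over Fbxw7, a set chosen after the values were seen, and all 8 had a higher median in MYCN ON. These 8 share Fbxw7, the only regulator with a lower mean in MYCN ON, so their common direction is not 8 separate observations. Usp7 reads per Aurka read went the other way, at a median of 3.21 (2.21 to 3.79) in MYCN ON and 5.10 (2.02 to 8.83) in MYCN OFF. Usp7 reads per Huwe1 read were 0.400 to 0.707 in MYCN ON and 0.247 to 0.510 in MYCN OFF. Per Trip12 read they were 0.702 to 1.32 in MYCN ON and 0.471 to 0.922 in MYCN OFF.

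**Figure D3:**
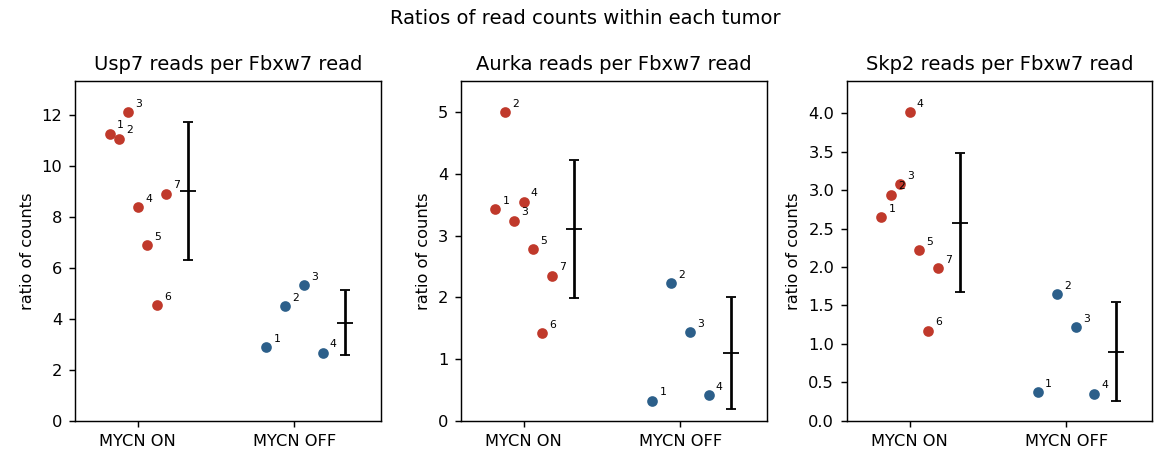
Reads of Usp7, Aurka and Skp2 per Fbxw7 read in each tumor, as ratios of raw counts on linear axes from 0; numbers are tumor numbers and bars are mean ± SD (n = 7 and 4). The Usp7 ratio was 4.54 in MYCN ON tumor 6, below the 5.33 of MYCN OFF tumor 3, and the other MYCN ON tumors lay above all MYCN OFF tumors.

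The HECT ligases Huwe1 and Trip12 and the RING ligase Trim32 had higher means in MYCN ON, and none of the 3 passed the test. Huwe1, the ligase with the most reads of the 9 genes, had 405, 609 and 676 CPM as the lowest, median and highest in MYCN ON and 291, 652, 421 and 378 CPM in MYCN OFF tumors 1 to 4 (log2 fold change 0.42, 95% interval -0.064 to 0.90, edgeR adjusted p = 0.17). Trip12, also a ligase of the ARF tumor suppressor, had 261, 337 and 385 CPM in MYCN ON and 231, 342, 249 and 209 CPM in MYCN OFF (0.37, 95% interval 0.019 to 0.73, adjusted p = 0.10). For both genes MYCN OFF tumor 2 lay above the MYCN ON median and MYCN ON tumor 5 was the lowest of its group. Without MYCN OFF tumor 2, Huwe1 (0.69, adjusted p = 0.0203) and Trip12 (0.55, adjusted p = 0.0167) were called. That was the only 1 of the 22 alternatives to call either gene. With library totals Huwe1 was at 0.10 and Trip12 at 0.068, and with the lung marker score at 0.031 and 0.11.

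Trim32 had 70.2, 94.9 and 144 CPM as the lowest, median and highest in MYCN ON and 30.8, 72.6, 87.0 and 45.5 CPM in MYCN OFF tumors 1 to 4. MYCN OFF tumors 2 and 3 lay within the MYCN ON range. The log2 fold change was 0.67 (SE 0.29, 95% interval 0.035 to 1.30, edgeR adjusted p = 0.10), and it passed under 0 of the 22 alternatives, with adjusted p-values of 0.0523 to 0.991. Trip12 overlaps Fbxo36 and Trim32 overlaps Astn2 in the annotation, so their counts carry the limit on strand too.

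Proliferation markers moved with several of these genes. The summed level of 15 markers such as Mki67 and Top2a, none of them among the 9, was 3886 to 7148 CPM in MYCN ON and 1158, 4893, 3216 and 1410 CPM in MYCN OFF tumors 1 to 4. Of the 15 markers, 7 were called higher in MYCN ON and 0 lower, against 16.0% and 13.4% of all genes. In MYCN OFF, Aurka, Plk1, Skp2 and Huwe1 had the same order of tumors as the marker sum, from tumor 1 through 4 and 3 to 2. An order of 4 tumors is a description only. Usp7, Gsk3b, Fbxw7, Trip12 and Trim32 had other orders there. For Usp7, tumor 2, the highest in proliferation markers, was second lowest at 161 CPM. The marker score, 7.47 to 8.18 in MYCN ON and 5.71 to 7.59 in MYCN OFF, largely followed the group, which limits a fit that holds both. With the marker score as a covariate, Aurka had a log2 fold change of 0.36, Skp2 of 0.62 and Plk1 of -0.47, none of them called by edgeR. Usp7 kept a value of 0.81 against 0.85 without the covariate, also not called (adjusted p = 0.088), and its unadjusted p was 0.00911. Aurka, Skp2 and Plk1 ran closely with markers inside the score, with r over the tumors of 0.984 (Ube2c), 0.973 (Cdc45) and 0.944 (Ccna2). Such a score takes up much of their difference by construction, so their contrast with Usp7 decides nothing. Lung marker sums put the MYCN OFF tumors in the exact reverse of the proliferation marker order, and the part of either in these differences was not tested.

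**Figure D4:**
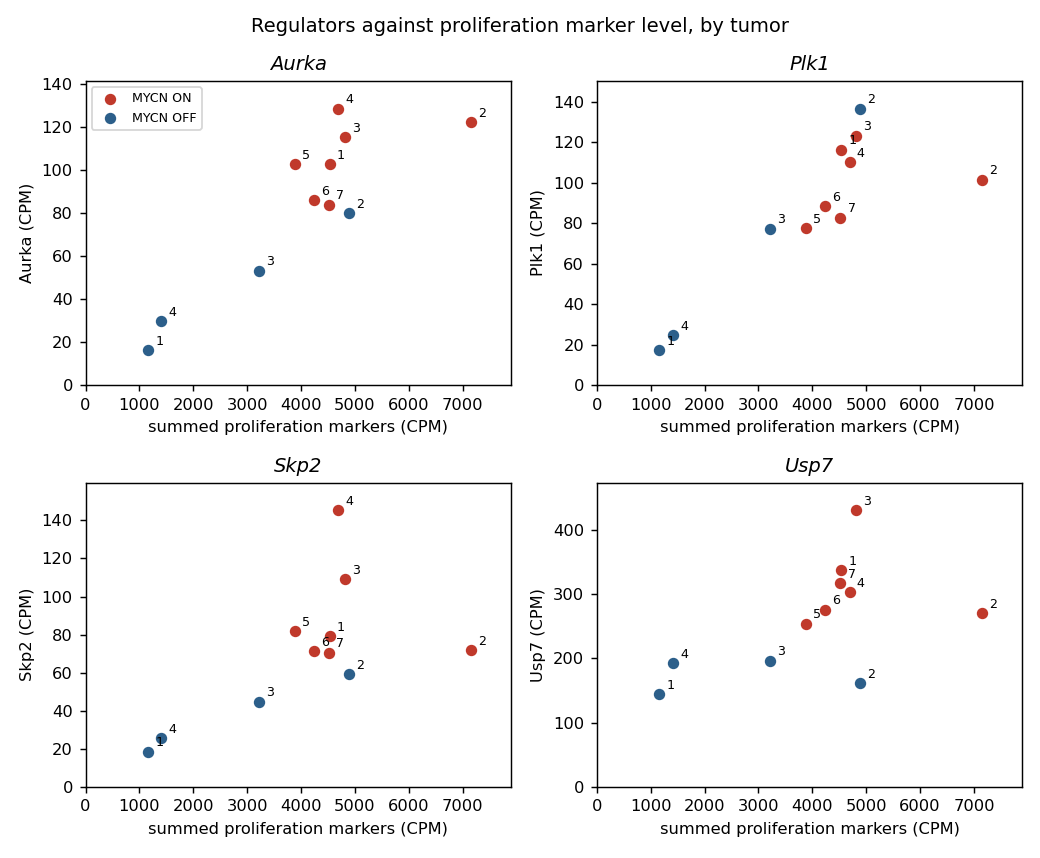
Aurka, Plk1, Skp2 and Usp7 in CPM against the summed level of 15 proliferation markers in CPM, by tumor, on linear axes from 0, with MYCN ON in red and MYCN OFF in blue. MYCN OFF tumor 2, at 4893 CPM of markers, had 137 CPM of Plk1, above all MYCN ON tumors, and 161 CPM of Usp7, below all of them.

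Levels of different genes were compared as CPM per kilobase of the longest protein-coding transcript in GENCODE M21, used for length only. Usp7 was the first of the 9 at 65.9 ± 12.5 in MYCN ON and 36.6 ± 5.33 in MYCN OFF. In MYCN ON Aurka followed at 55.5 ± 8.99, Plk1 at 45.4 ± 7.99, Gsk3b at 40.9 ± 13.3 and Huwe1 at 39.9 ± 6.56, neighbours that lay within 1 SD or little more of each other. Trip12 was at 34.7 ± 3.94 and Trim32 at 29.3 ± 7.84. Skp2, at 14.5 ± 4.51, and Fbxw7, at 8.28 ± 2.54, were the lowest, though the highest Skp2 tumor, at 23.5, passed the lowest Trim32 tumor. In MYCN OFF Fbxw7 was at 10.9 ± 3.78 and Skp2 at 5.98 ± 2.98, so their order was the other way round, with overlapping ranges. The lengths matter: with the median transcript in place of the longest, Gsk3b was first over all tumors and Usp7 the fourth, while Skp2 and Fbxw7 stayed eighth and ninth.

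The genes most like each regulator were taken from 13642 named genes with at least 1 CPM on average, by Pearson's r of log2 CPM over the 11 tumors. These values share the group difference and the libraries, and describe likeness only. For Usp7 they were Trmt6 (r = 0.968), a subunit of a tRNA methyltransferase, Yrdc (0.967), a tRNA modification enzyme, Usp36 (0.966), a nucleolar deubiquitinase of MYC, Slc19a1 (0.955), the folate carrier, and Rsl1d1 (0.955), a nucleolar protein. After the group means were taken out the same r were between 0.805 and 0.872. Aurka was most like Bub1b (0.988), a spindle checkpoint kinase, Plk1 like Kif20a (0.978), a mitotic kinesin, and Skp2 like Rfc4 (0.984), a subunit of the replication clamp loader. Gsk3b was most like Brwd1 (0.963), Huwe1 like Prrc2a (0.982), Trip12 like Pggt1b (0.972), Fbxw7 like Etv4 (0.907) and Trim32 like Fdx1l (0.943). Etv4, at 1.35 CPM in MYCN ON and 3.08 CPM in MYCN OFF, and Fdx1l, at 2.18 CPM in MYCN ON and 1.86 CPM in MYCN OFF, were low in reads.

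Other known regulators of MYC and MYCN turnover were more often higher than lower in MYCN ON. Of 37 such genes, 12 were called higher and 0 lower by edgeR, against 16.0% and 13.4% of all genes, with a median log2 fold change of 0.44. At an unadjusted p below 0.05, 18 were higher and 1 lower, against 22.0% and 20.9% of all genes. DESeq2 called 15 higher and 1 lower, against 17.5% and 19.2%, and limma voom 15 and 0, against 16.5% and 12.1%. Set, an inhibitor of the phosphatase PP2A, was at 903 ± 185 CPM in MYCN ON and 277 ± 9.40 CPM in MYCN OFF (log2 fold change 1.71 with SE 0.18, edgeR adjusted p = 3.46e-04). Skp1a, the SCF adaptor shared by FBXW7 and SKP2, had 445 ± 38.2 CPM in MYCN ON and 258 ± 49.3 CPM in MYCN OFF. The deubiquitinases Usp22 (log2 fold change 0.93, adjusted p = 0.00489) and Usp36 (0.82, adjusted p = 0.00788) were called too. With library totals 5 of the 37 were called higher and 4 lower, and with the lung and proliferation scores 4 and 3 were higher. Of all genes, 8.67% and 21.9% were called higher and lower with library totals, and 6.86% and 4.34% higher with those scores.

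Among 24 substrates and partners of USP7, 7 were called higher and 2 lower, against 16.0% and 13.4% of all genes. Their median log2 fold change was 0.42. Rnf2, a ligase of Polycomb complex PRC1, was at 119 ± 16.1 CPM in MYCN ON and 53.7 ± 7.90 CPM in MYCN OFF (log2 fold change 1.15 with SE 0.16, edgeR adjusted p = 9.73e-04). Gmps, a GMP synthase that binds USP7, rose 2.73-fold, Ercc6, a repair factor, 1.92-fold and Rnf168, a ligase of the DNA damage response, 1.72-fold. The lower genes, named although outside the naming rule, were Ring1 (log2 fold change -0.89) and Foxo1 (-0.92). Mdm2, the p53 ligase that USP7 stabilises, was not called (0.19, adjusted p = 0.282), nor was Trp53 (-0.20, adjusted p = 0.6). The tumors carried the Rb;p53 genotype, and whether Trp53 was intact in the tumor cells was not examined. Without MYCN OFF tumor 2, 12 were called higher, against 19.1% of all genes. Without MYCN OFF tumor 4, 0 were called lower, against 8.09% of all genes. Leaving out any of the other tumors except MYCN ON tumor 7 and MYCN OFF tumor 2 gave 1 lower, against 6.59% to 13.5% of all genes.

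Of 24 mitotic partners of Aurora A and PLK1, 6 were called higher and 1 lower, against 16.0% and 13.4% of all genes. Their median log2 fold change was 0.92. Ccnb1, cyclin B1, was at 266 ± 64.6 CPM in MYCN ON and 79.9 ± 55.5 CPM in MYCN OFF (log2 fold change 1.74 with SE 0.40, edgeR adjusted p = 0.0096). The checkpoint kinases Bub1b (1.70) and Bub1 (1.56) and the centriole kinase Plk4 (0.99) were also called, and the scaffold Nedd9, outside the naming rule, was lower (-1.59, adjusted p = 0.0331). With the proliferation score 0 of the 24 were called higher or lower, against 4.34% and 1.79% of all genes. That score is itself built from proliferation genes, which limits this fit. Ccnb1 was then at 0.72 (edgeR adjusted p = 0.0878), Bub1b at 0.61 (0.181), Bub1 at 0.56 (0.356) and Plk4 at 0.30 (0.497). With the lung score 1 was called higher, against 6.86% of all genes, and Bub1b (edgeR adjusted p = 0.0612), Bub1 (0.108) and Plk4 (0.143) were not. With library totals 3 were called higher, by DESeq2 10 and by limma voom 13, against 8.67%, 17.5% and 16.5% of all genes. Tpx2, the activator of Aurora A, had 1.15 (adjusted p = 0.0699) and Aurkb, Aurora B, 0.92 (adjusted p = 0.188). Without MYCN OFF tumor 2 the count was 17 higher and 2 lower, against 19.1% and 15.7% of all genes. Without MYCN OFF tumor 1 it was 2 and 0 (12% and 6.59% of all genes), and without tumor 4 it was 3 and 0 (10.9% and 8.09%). Without MYCN ON tumor 4 there were 0 lower and without MYCN ON tumor 6 there were 2, against 11.1% of all genes in each case.

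Relatives of the ligases were called in both directions, as were all genes, 16.0% of them higher and 13.4% lower. Of 23 other HECT ligases, 6 were called higher, among them Ube3a (log2 fold change 1.12) and G2e3 (1.44), and Herc6, an interferon-induced member, was lower (-1.84, edgeR adjusted p = 0.00149). Their median was 0.23. Of 56 other F-box genes tested, 4 were higher and 6 lower with a median of 0.026, among them Fbxo11 (0.76), Fbxo21 (1.15), Fbxl8 (-1.71) and Fbxo6 (-1.21). Of 3 other TRIM-NHL genes Trim3 was lower (-0.85, adjusted p = 0.00207), and Trim71 (2.60, adjusted p = 0.0593) and Trim2 (0.88, adjusted p = 0.0847) were not called. DESeq2 called Trim71 (2.55, adjusted p = 0.0105), and with the proliferation score its value was 0.70 (adjusted p = 0.746). Without MYCN OFF tumor 4 there were 3 HECT genes higher and 3 F-box genes lower, against 10.9% higher and 8.09% lower of all genes. Without MYCN OFF tumor 2 there were 9 F-box genes higher, against 19.1% of all genes, and Trim71 was called. F-box genes called higher numbered 2 without MYCN OFF tumor 3 (11.6% of all genes), and HECT genes called lower 2 without MYCN ON tumor 1 (11.5%). Trim71 was also called without MYCN ON tumor 7.

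Around GSK3 and the beta-catenin destruction complex, 2 of 11 genes were called higher and 1 lower, near the 16.0% and 13.4% of all genes, with a median log2 fold change of 0.51. Csnk1a1, casein kinase 1 alpha, was at 232 ± 31.2 CPM in MYCN ON and 132 ± 33.0 CPM in MYCN OFF (0.82, SE 0.18, edgeR adjusted p = 0.00722). Akt1, a kinase that inhibits GSK3, had 0.53 (adjusted p = 0.0257) and Axin2, a scaffold and Wnt target, -1.29 (adjusted p = 0.02). Gsk3a, the paralog of Gsk3b, was not called at 0.51 (adjusted p = 0.0561). Akt1 lost its call with upper quartile factors (0.32, adjusted p = 0.107), library totals (0.22, 0.316), the lung score (0.38, 0.207) and the proliferation score (0.35, 0.355), and Axin2 with the proliferation score (-1.61, 0.0695). Akt1 also lost it without MYCN OFF tumors 1, 3 or 4 (log2 fold change 0.47, 0.54 and 0.50, adjusted p = 0.0749, 0.0573 and 0.0709), and Axin2 without tumors 2 or 4. Without MYCN OFF tumor 2 or MYCN ON tumor 5, 4 were higher, Gsk3a among them, against 19.1% and 16.1% of all genes.

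**Figure D5:**
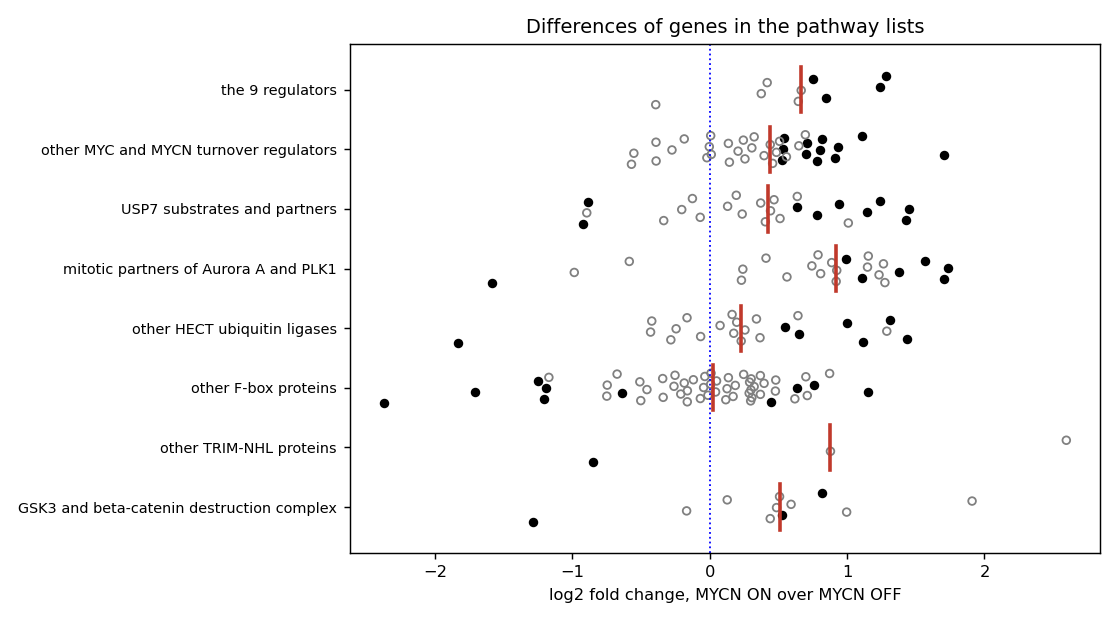
Log2 fold change of MYCN ON over MYCN OFF for the 9 regulators and the genes tested in 7 lists; filled points have an adjusted p below 0.05, red lines are list medians and the dotted line is the median of all genes tested, 0.0023. Vertical scatter within a row carries no value. Medians were 0.67 for the 9 regulators, 0.92 for the mitotic partners and 0.026 for the other F-box genes.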

How the data were processed

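Poly(A) RNA of 11 tumors was sequenced, and 1 table of raw counts by gene symbol per tumor was deposited by the authors, without normalization. bcl2fastq 1.8.4, TopHat2 2.0.8b, HTSeq 0.6.1 and build mm9 are listed, per the submitters' processing notes. The gene annotation and the strand setting are not given in the sources used here. The HTSeq summary entries were left out of totals and fits; of a tumor's records, 14.8% to 21.5% fell in no gene, 9.15% to 20.9% were placed more than once and 0.831% to 1.04% were ambiguous.

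Groups came from the sample titles. In R 4.3.3, edgeR 4.0.16 kept genes by filterByExpr (minimum count 10, minimum total 15), scaled by TMM and compared the groups with the robust quasi-likelihood test, with adjustment over all 15237 genes. SE is the absolute log2 fold change over the square root of F. The biological coefficient of variation was 53.7%, far above counting error at 204 to 7763 reads per regulator and tumor. Tumors of the same group all differed by far more than sampling noise (smallest chi-square per gene 53.8). Scores are means of log2 CPM with a prior count of 2.

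The 9 genes and all gene lists were chosen with earlier results of these data known. Named genes are the 9, Mycn, up to 4 genes of smallest p per pathway list, and the 5 genes most like Usp7 and 1 most like each other regulator. Genes in more than 1 list were counted in each. Bora and Ajuba were not found under those symbols, and 1 other F-box gene did not pass the filter. Some genes that this rule names are not reported here. Further names in the text were chosen after their values were seen. Alternatives were RLE, upper quartile and no factors, DESeq2 1.42.0, limma 3.58.1 voom, no filter and a stricter one (1 CPM in 4 tumors), the replicate number as a block, lung and proliferation marker scores as covariates, an adjusted p below 0.01 and each tumor left out in turn.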

Additional observations from a re-analysis of the deposited data

Results flagged for a closer look

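Within MYCN ON, 2 values stood far from the rest of the group: Fbxw7 in tumor 6, at 60.7 CPM, with 0.657 of the group's range between it and the next tumor, and Trim32 in tumor 4, at 144 CPM, with 0.603. Chance flags about 1 in 20 such groups, and 20 were examined.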

How the results depend on the processing

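The direction of Usp7 and Mycn held under all 22 alternatives, with log2 fold changes of 0.53 to 0.94 and 2.69 to 3.26. Usp7 lost its call with the proliferation marker score as a covariate (0.81, edgeR adjusted p = 0.088). The count of regulators called higher was 2 with library totals, 1 with the lung marker score, 0 with the proliferation marker score and 1 at an adjusted p below 0.01. Of all genes, 8.67%, 6.86%, 4.34% and 7.79% were called higher under these settings, in that order. The count of regulators ran from 1 to 7 when 1 tumor was left out, where 10.9% to 19.1% of all genes were called higher. The count called lower was 0 throughout. Plk1 (-0.47), Fbxw7 (0.21) and Huwe1 (-0.11) changed sign with the proliferation marker score, none of them called, and the cause was not tested. Fits with a covariate or a block have fewer residual degrees of freedom. The proliferation marker score was 7.47 to 8.18 in MYCN ON and 5.71 to 7.59 in MYCN OFF, so it largely followed the group. A fit that holds both cannot cleanly separate them, and it called 662 of all genes higher and 272 lower. Same-numbered tumors deviated together for numbers 2 and 4 (r = 0.462 and 0.265) and not for 1 and 3 (-0.162 and -0.0763), so the numbers were not taken as pairs. With the replicate number as a block Akt1 lost its call (adjusted p = 0.11), Trim71 gained one (3.50, adjusted p = 0.0193), 3 of the 9 were called higher, Usp7 at 0.94 (adjusted p = 0.0247), and 1872 genes were called higher and 1152 lower, against 2437 and 2038 without it. Higher calls made up 54.5% of all calls with TMM, 48.0% with RLE, 37.0% with upper quartile scaling (median log2 fold change of all genes -0.21) and 28.4% with library totals (median -0.31). List counts ran from 0 to 17 for mitotic partners, 3 to 15 for other turnover regulators and 3 to 12 for USP7 substrates called higher, lowest with the proliferation score for each. They ran from 0 to 8 for other HECT ligases, 2 to 9 for other F-box genes and 0 to 4 around GSK3.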
